A study of Mus musculus with 2 samples.

Results

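The genes that carry glucose, lactate and pyruvate across membranes were measured in the hearts of mouse embryos. The 10 genes were taken by symbol, by the substrate they carry and not by a cut on measured values, and are 10 of the 43346 mouse genes in the tables: the glucose carriers Slc2a1, Slc2a3, Slc2a4 and Slc2a8, the monocarboxylate carriers Slc16a1, Slc16a3 and Slc16a7, their chaperone Bsg, and the mitochondrial pyruvate carrier subunits Mpc1 and Mpc2. Total RNA came from hearts of healthy B6NCrl embryos at embryonic day 10.5 and was sequenced in 2 libraries of 1 group. Replicate 1 pooled hearts of 69 embryos and replicate 2 pooled hearts of 51 embryos, each pool holding males and females. Per the labels, each library was made from 10 ng of RNA above 200 nt with ERCC spike-ins (known amounts of synthetic RNA). No second condition was measured, so values were compared between genes within a library and between the 2 pools, and no p-value is given. Levels are TPM, a relative abundance per transcript, which are scaled by length and can be compared between genes, and mean levels carry their SD over n = 2 pools.

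Sugars and monocarboxylates cross membranes by facilitated transport. The SLC2 family (GLUT proteins) moves glucose down its gradient. SLC16 members of the MCT type move lactate, pyruvate and ketone bodies together with a proton, and need an immunoglobulin-type partner, basigin or embigin, to reach the plasma membrane. Pyruvate made by glycolysis either leaves the cell as lactate or enters mitochondria through a carrier made of MPC1 and MPC2. The embryonic heart is known to rely largely on glycolysis, and the adult heart largely on fatty acids.

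The libraries held 45205713 expected counts in replicate 1 and 41070978 in replicate 2, of which 43295923 and 39786163 lay on mouse genes. All 10 heart muscle markers, among them the cardiac troponin gene Tnnt2, were at 1 TPM or more in both pools. The pools differed in marker RNAs. The 10 liver markers summed to 1613 TPM in replicate 1 and 82.4 TPM in replicate 2, and every one of them was higher in replicate 1. The 10 heart muscle markers summed to 21162 TPM in replicate 1 and 35504 TPM in replicate 2, and every one was higher in replicate 2.

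Sequences are shown at 2 points where the transcript data bear on them. The first is Bsg, whose long form carries an additional immunoglobulin-type domain and whose short form lacks it. The long form Bsg-201 has an exon of 348 bases at chr10:79708697-79709044 (mm10, plus strand) that the short form Bsg-205 skips, and that length is divisible by 3. The 20 bases on each side of the junction after the first exon are given 5′ to 3′ from the GENCODE transcripts, with the end of exon 1 (chr10:79704565-79704584) in lower case and the start of the next exon in capitals.
Bsg-205: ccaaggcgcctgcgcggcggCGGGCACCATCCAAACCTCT
Bsg-201: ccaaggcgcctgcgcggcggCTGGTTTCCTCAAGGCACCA
The short form held 98.5% of Bsg TPM in replicate 1 and 98.2% in replicate 2. The long form, known from the retina, held 0.28% and 0.27%, with 127 and 118 expected counts.

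The other sequences are promoters of 3 carriers of the glucose and monocarboxylate groups. Slc2a1 and Slc16a3 are textbook targets of the hypoxia-inducible factors, which bind the letters ACGTG in a suitable context, and Slc16a1 is shown as the second carrier of its group. The 250 bases before the RefSeq start site are printed from the RefSeq table (GRCm38.p6, which has the coordinates of mm10), 5′ to 3′ on the plus strand, with ACGTG on either strand in capitals. They cover chr4:119108495-119108744 for Slc2a1, chr11:120948817-120949066 for Slc16a3 and chr3:104638414-104638663 for Slc16a1.
Slc2a1: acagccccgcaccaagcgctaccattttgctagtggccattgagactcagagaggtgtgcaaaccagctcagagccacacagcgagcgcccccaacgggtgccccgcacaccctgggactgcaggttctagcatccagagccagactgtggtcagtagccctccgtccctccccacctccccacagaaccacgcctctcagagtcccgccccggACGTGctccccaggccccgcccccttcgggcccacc
Slc16a3: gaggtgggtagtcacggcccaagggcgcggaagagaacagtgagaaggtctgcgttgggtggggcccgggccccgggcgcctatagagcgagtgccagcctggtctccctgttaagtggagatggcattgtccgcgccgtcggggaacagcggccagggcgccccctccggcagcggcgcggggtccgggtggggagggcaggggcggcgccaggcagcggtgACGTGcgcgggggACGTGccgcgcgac
Slc16a1: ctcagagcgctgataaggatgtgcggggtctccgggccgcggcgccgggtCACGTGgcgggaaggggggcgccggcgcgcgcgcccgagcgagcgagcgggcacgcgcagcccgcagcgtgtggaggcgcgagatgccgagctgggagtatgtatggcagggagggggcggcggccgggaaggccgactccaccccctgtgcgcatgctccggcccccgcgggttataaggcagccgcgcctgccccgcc
The letters occurred once before the Slc2a1 start, 36 bases upstream of it, and at 2 places before the Slc16a3 start, 27 and 14 bases upstream. In Slc16a1 they formed the palindrome CACGTG, which counts on both strands, and a further match lay 20 bases after the start, outside the bases printed. The table held windows for 6 of the 10 genes, 7 windows in all, and 3 of those windows held ACGTG. Those 3 are the promoters printed, and the windows of Mpc1, Mpc2 and Slc2a8 held no match. Among 32817 distinct windows of the same 300 bases (250 before the start and 50 after it), 19.6% held ACGTG on either strand and 8.21% held at least 2 matches. A match is a string of letters and not a measured site. The Slc16a3 window lies before the start of transcript Slc16a3-202, and the leading transcript Slc16a3-201 starts farther upstream. The leading transcript Slc2a1-201 starts at chr4:119108711, within the match and before the RefSeq start site.

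All 10 genes were detected at 1 TPM or more in both pools, as were 57.0% of the 21474 protein-coding genes. By mean TPM the order was Bsg, Slc2a1, Slc16a3, Mpc2, Mpc1, Slc16a1, Slc2a3, Slc2a8, Slc2a4 and Slc16a7. Among 21461 nuclear protein-coding genes, Bsg ranked 73rd, Slc2a1 232nd and Slc16a3 373rd, and Slc16a7 came last of the 10 at rank 11228. The 10 genes together summed to 2252 TPM in replicate 1 and 2487 TPM in replicate 2, and took 0.277% and 0.295% of the expected counts on mouse genes. A ratio between 2 genes was called larger than the spread between pools where the sign was shared by both libraries and the mean log2 ratio lay beyond a limit. That limit was built from the differences between the pools in the 500 genes nearest in TPM to each of the 2. Of the 13 pairs set for comparison, 11 passed it. Of the 9 neighbouring pairs in the order of levels, 4 passed: Bsg over Slc2a1, Slc16a3 over Mpc2, Slc2a3 over Slc2a8, and Slc2a4 over Slc16a7. The last of these did not pass in replicate 1 alone (log2 ratio 2.29) or with a limit from 200 nearest genes. The other 5 neighbours did not differ beyond the spread: Slc2a1 and Slc16a3, Mpc2 and Mpc1, Mpc1 and Slc16a1, Slc16a1 and Slc2a3, and Slc2a8 and Slc2a4.

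**Figure D1:**
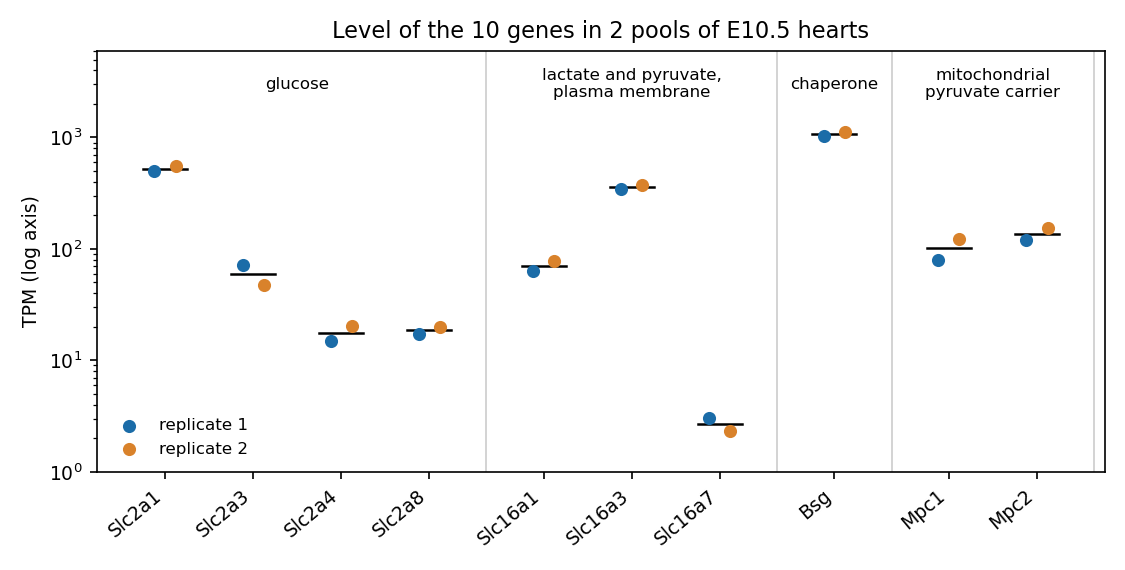
Level of each gene in TPM (log axis) in replicate 1 and replicate 2, with the genes grouped by substrate and a bar at the mean. Bsg lies highest at 1041 and 1118 TPM, Slc2a1 and Slc16a3 lead their groups, and Slc16a7 lies lowest at 3.01 and 2.34 TPM.

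Among the glucose carriers, Slc2a1 led by far. Slc2a1 (ENSMUSG00000028645.6, chr4:119108711-119137983, plus strand), which encodes the widely expressed basal carrier GLUT1, had 495 TPM in replicate 1 and 556 TPM in replicate 2, a mean of 525 ± 42.9. Its expected counts were 37602 and 38041. Slc2a3 (chr6:122727809-122801640, minus strand), the gene of the high-affinity carrier GLUT3 known from neurons and placenta, had 71.0 TPM in replicate 1 and 47.2 TPM in replicate 2, a mean of 59.1 ± 16.8. It was the only glucose carrier of the 4 that was higher in replicate 1, and the deposited intervals of the pools did not overlap.

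Slc2a4 (chr11:69942539-69948188, minus strand) encodes GLUT4, the insulin-responsive carrier of adult heart, skeletal muscle and fat. It had 14.8 TPM in replicate 1 and 20.4 TPM in replicate 2, a mean of 17.6 ± 3.99, on 1041 and 1259 expected counts. Slc2a8 (chr2:32972990-32982083, minus strand), the gene of GLUT8, a carrier held largely on membranes inside the cell, had 17.3 TPM in replicate 1 and 19.8 TPM in replicate 2, a mean of 18.6 ± 1.74. The insulin-responsive carrier was at about the level of the intracellular one, and their order changed between the pools, with Slc2a8 over Slc2a4 at 1.17-fold in replicate 1 and 0.971-fold in replicate 2.

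Summed over the 4 genes, the glucose carriers reached 598 TPM in replicate 1 and 643 TPM in replicate 2. Slc2a1 made up 82.8% and 86.4% of that sum, Slc2a3 11.9% and 7.34%, Slc2a8 2.90% and 3.08%, and Slc2a4 2.47% and 3.17%. Slc2a1 exceeded Slc2a3 by 6.97-fold in replicate 1 and 11.8-fold in replicate 2, a mean log2 ratio of 3.18 ± 0.53 against a limit of 0.88. The log2 ratio of TPM between the pools, replicate 1 over replicate 2, was 0.59 for Slc2a3 and -0.17 for Slc2a1. Slc2a1 over Slc2a4 was 33.5-fold and 27.2-fold, and Slc2a1 over Slc2a8 was 28.5-fold and 28.1-fold. Slc2a3 exceeded Slc2a4 by 4.81-fold in replicate 1 and 2.31-fold in replicate 2 (mean log2 1.74 ± 0.75, limit 1.03), and it exceeded Slc2a8 by 4.09-fold and 2.38-fold.

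The monocarboxylate carriers were led by the gene best known for lactate export. Slc16a3 (ENSMUSG00000025161.12, chr11:120948480-120960868, plus strand) encodes MCT4, a carrier of glycolytic cells, and had 345 TPM in replicate 1 and 371 TPM in replicate 2, a mean of 358 ± 18.7. Slc16a1 (chr3:104638668-104658462, plus strand), the gene of the widely expressed carrier MCT1, which moves lactate in either direction, had 63.6 TPM in replicate 1 and 77.3 TPM in replicate 2, a mean of 70.5 ± 9.63. Slc16a7 (chr10:125219270-125389465, minus strand), the gene of the high-affinity carrier MCT2, had 3.01 TPM in replicate 1 and 2.34 TPM in replicate 2, on 219 and 156 expected counts, and its intervals overlapped. All 3 genes kept the same order in each pool.

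The 3 monocarboxylate carriers summed to 411 TPM in replicate 1 and 451 TPM in replicate 2. Slc16a3 held 83.8% and 82.3% of the sum, Slc16a1 15.5% and 17.1%, and Slc16a7 0.731% and 0.519%. Slc16a1 over Slc16a3 was 0.185 in replicate 1 and 0.208 in replicate 2, a mean log2 ratio of -2.35 ± 0.12 against a limit of 0.92. Slc16a3 over Slc16a7 was 114-fold and 158-fold, with a wide limit of 2.46 on the log2 scale, set by the spread of genes as low as Slc16a7. The share depends on scaling by length: Slc16a3 held 71.6% and 69.1% of the expected counts of the group, which are not divided by length, and Slc16a1 held 27.7% and 30.3%.

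Bsg (ENSMUSG00000023175.11, chr10:79704491-79711969, plus strand) encodes basigin, the chaperone of MCT1 and MCT4. It was the most abundant of the 10, with 1041 TPM in replicate 1 and 1118 TPM in replicate 2, a mean of 1079.5 ± 54.1. Bsg exceeded Slc16a3 by 3.02-fold and 3.01-fold, and it exceeded Slc16a1 by 16.4-fold and 14.5-fold. Bsg also stood at 2.53 times the summed level of the 3 monocarboxylate carriers in replicate 1 and 2.48 times in replicate 2. Against Slc2a1, the next gene in level, it was 2.10-fold and 2.01-fold higher per length, while in expected counts, not divided by length, Slc2a1 was the larger of the 2. In expected counts the ratio of Bsg to Slc16a3 no longer passed its limit (mean log2 0.77). Embigin, the product of Emb and the partner known for MCT2, was far below: Emb had 46.3 TPM in replicate 1 and 27.6 TPM in replicate 2, and Bsg over Emb was 22.5-fold and 40.5-fold. Nptn, the gene of neuroplastin and the remaining basigin relative listed, had 73.5 and 86.8 TPM.

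**Figure D2:**
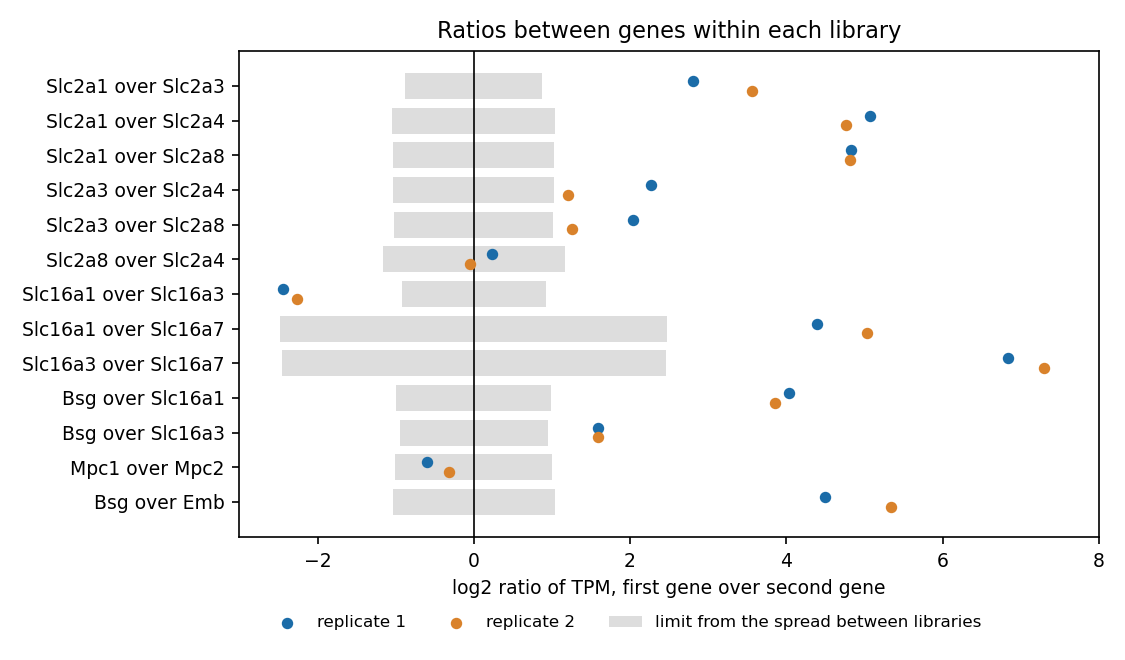
Log2 ratio of TPM between the 2 genes of each of the 13 pairs within replicate 1 and replicate 2 (points), with grey bars for the limit in either direction. Points of Slc2a8 over Slc2a4 and of Mpc1 over Mpc2 lie inside their bars, and the other 11 pairs lie outside.

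Both subunits of the mitochondrial pyruvate carrier were present at comparable levels. Mpc1 (chr17:8282904-8297661, plus strand) had 80.1 TPM in replicate 1 and 123 TPM in replicate 2, a mean of 101 ± 30.1, on 2067 and 2801 expected counts. Mpc2 (chr1:165460637-165481214, plus strand) had 121 TPM in replicate 1 and 153 TPM in replicate 2, a mean of 137 ± 22.2. Mpc1 over Mpc2 was 0.660 in replicate 1 and 0.803 in replicate 2, a mean log2 ratio of -0.46 ± 0.20 that did not pass the limit of 1.01.

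Part of the Mpc2 level was assigned to a noncoding transcript that lies within the span of the coding Mpc2-201. Such a split is an estimate, since transcripts that overlap can share reads. Mpc2-203, a processed transcript of 493 bases (chr1:165478142-165481119), held 29.5% of Mpc2 TPM in replicate 1 and 31.3% in replicate 2, but only 14.5% and 15.6% of the expected counts. Counting protein-coding transcripts alone, an alternative chosen after seeing the data, Mpc1 had 79.0 TPM in replicate 1 and 120 TPM in replicate 2, and Mpc2 had 84.0 and 103 TPM. Mpc1 over Mpc2 was then 0.940 in replicate 1 and 1.17 in replicate 2, so the order of the subunits changed between the pools. The pair summed to 202 TPM in replicate 1 and 275 TPM in replicate 2 over all transcripts, below the sums of both plasma membrane groups.

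The tables list 58 transcripts of the 10 genes, of which 15 held at least 10% of their gene's TPM in either pool. In 5 genes a leading transcript held over 90% in both pools: Slc2a1-201 with 99.4% in replicate 1 and 99.3% in replicate 2, Slc2a3-201 with 96.5% and 95.7%, Bsg-205, Mpc1-208 with 97.0% and 93.0%, and Slc16a1-201, the only transcript listed for its gene. Slc2a4-201 held 79.0% and 84.8% of Slc2a4, and Slc2a8-201 held 82.5% and 84.5% of Slc2a8, where the retained-intron transcript Slc2a8-205 added 10.7% and 9.95%. Slc16a7-202 held 83.1% and 80.6% of Slc16a7, and Slc16a7-201 held the remaining 16.9% and 19.4%. Mpc2-201, the coding form, held 69.2% and 67.5% of Mpc2.

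Slc16a3 was the gene most divided between coding forms. Slc16a3-201 held 58.4% of its TPM in replicate 1 and 57.4% in replicate 2, Slc16a3-202 held 27.6% and 26.9%, and the shorter Slc16a3-207 held 11.3% and 12.5%. The forms Slc16a3-201 and Slc16a3-202 begin at different first exons, at chr11:120948480-120948579 and chr11:120949067-120949150. They also end at different positions, chr11:120958775 and chr11:120959000. Both share the same 1410 coding bases, so their shares concern the transcript outside those bases and not the encoded protein. Shares of transcripts that overlap are estimates from shared reads.

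**Figure D3:**
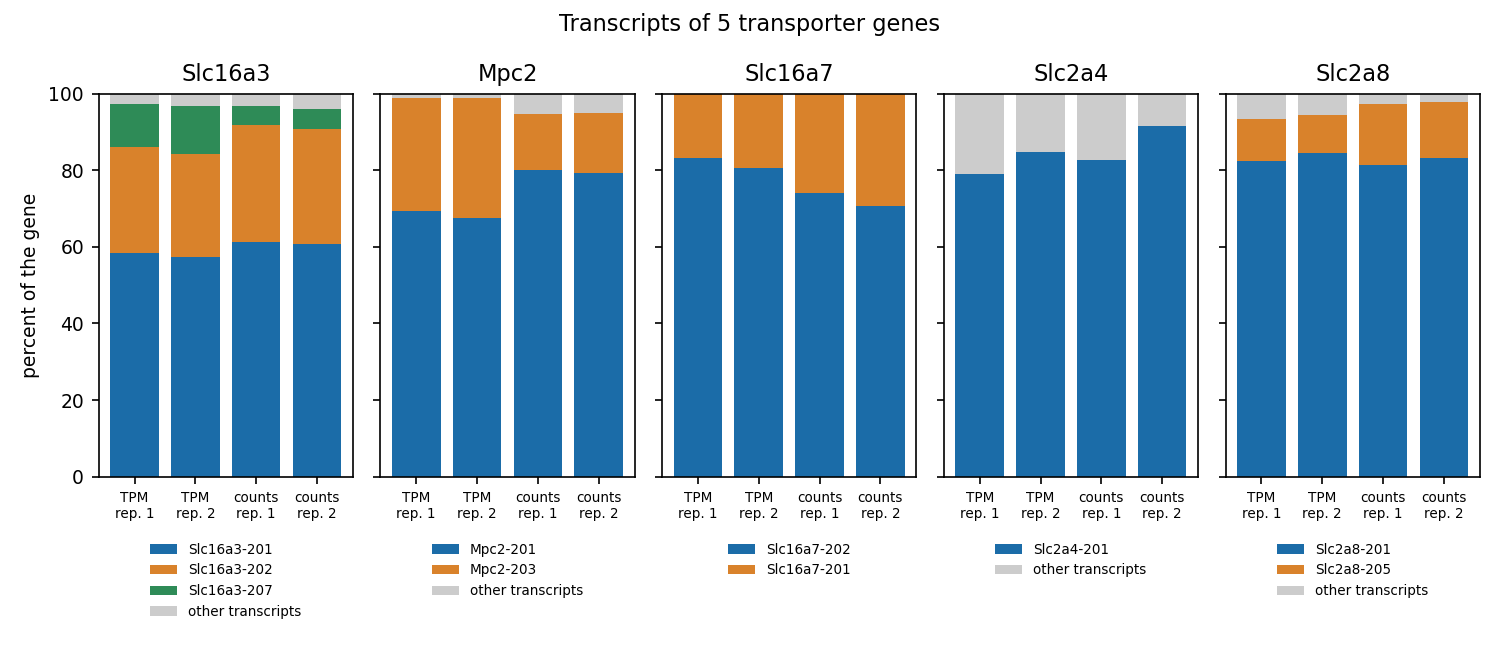
Percent of the gene's TPM (left pair of bars) and of its expected counts (right pair) held by each transcript in replicate 1 and replicate 2, for the 5 genes with no transcript over 90%. Slc16a3 is divided over 3 transcripts, and the noncoding Mpc2-203 takes 29.5% and 31.3% of Mpc2 by TPM but 14.5% and 15.6% by counts.

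Between the pools, none of the 10 genes differed by 2-fold with intervals that did not overlap, a mark that 7.04% of 14124 genes with a mean count of 50 or more (the genes tested) reached. The deposited intervals were apart for 8 of the 10 genes, against 52.3% of those genes, and overlapped for Slc2a8 and Slc16a7. On counts scaled by TMM, a correction for library composition, 2 genes were higher in replicate 1 (Slc2a3 and Slc16a7) and 8 were higher in replicate 2. The median log2 ratio of the 10, replicate 1 over replicate 2, was -0.28, beside -0.01 over all genes tested, and their median absolute log2 ratio was 0.34, beside 0.24. Mpc1 showed the widest difference, a log2 ratio of -0.69 (95% counting interval -0.77 to -0.61), which is 1.61-fold higher in replicate 2, and 14.8% of genes had a larger absolute ratio. On TMM-scaled counts Mpc1 alone of the 10 reached 1.5-fold with intervals apart, a mark reached by 16.3% of genes. No gene of the 10 reached it on the side of replicate 1, where 8.58% of genes did. Which genes reach 1.5-fold depends on the scaling. By deposited TPM, Slc2a3 stood just past it on the side of replicate 1, at a log2 ratio of 0.59 with intervals apart.

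Slc2a3 lay on the other side, with a log2 ratio of 0.50 (0.45 to 0.55), or 1.41-fold higher in replicate 1. Slc2a4 stood at -0.52, Mpc2 at -0.41, Slc16a1 at -0.38, Slc2a8 at -0.30, Slc2a1 at -0.27, and Slc16a3 and Bsg each at -0.20. Slc16a7 stood at 0.24, with a counting interval of -0.06 to 0.54 that spans 0. Scaling by the spike-ins in place of TMM lowered the median of all genes to -0.34, put Slc16a7 at -0.08, so that 9 genes were higher in replicate 2, and put Mpc1 at -1.01, past 2-fold. Relative to that shifted median, Slc2a3 at 0.18 and Slc16a7 still lay on the side of replicate 1.

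**Figure D4:**
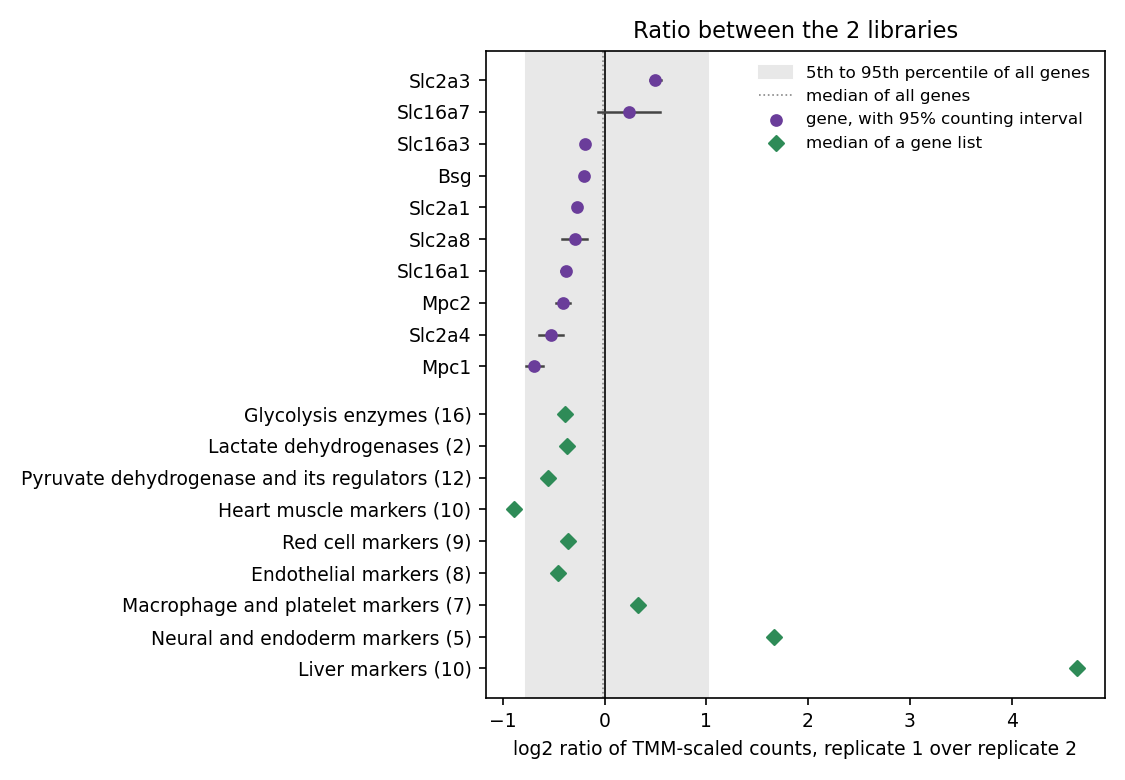
Log2 ratio of TMM-scaled expected counts, replicate 1 over replicate 2, for each of the 10 genes (circles, with 95% counting intervals) and as the median of each gene list (diamonds, number of genes tested in brackets); the grey band spans the 5th to 95th percentile of all genes tested. Genes run from -0.69 for Mpc1 to 0.50 for Slc2a3, all inside the band. The median of the heart muscle list lies left of the band. Medians of the liver list and of the joint neural and endoderm list lie right of it. The neural marker Tubb3 of that joint list, not drawn singly, stood at 0.47, inside the band.

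Several marker lists differed between the same pools. The median log2 ratio, replicate 1 over replicate 2, was -0.89 for the 10 heart muscle markers (most abundant Actc1, Myl7 and Myl2), of which 4 passed the 2-fold mark on the side of replicate 2 (a mark reached by 2.31% of genes): Myh7, Actn2, Myl2 and Nppa. It was -0.46 for 8 endothelial markers (Plvap, Egfl7 and Tek first; 495 TPM summed in replicate 1 and 574 TPM in replicate 2) and -0.36 for 9 red cell markers (Hbb-y, Hbb-bh1 and Hba-x first; 28637 and 35423 TPM summed), with no gene past the mark in either list. Liver markers, led by Afp, Trf and Apoa2, stood at 4.64, with all 10 past the mark on the side of replicate 1 (4.74% of genes) and the largest ratios in Hnf4a, Serpina1a, Fgb, Apoa1, Ambp and Afp. Neural and endoderm markers summed to 62.2 TPM in replicate 1 and 22.0 TPM in replicate 2, with 4 of 5 tested genes past the mark on the side of replicate 1 (Foxa2, Epcam, Cdh1 and Sox17, but not Tubb3). Macrophage and platelet markers, led by Pf4, Lyz2 and Itga2b, summed to 125 TPM in replicate 1 and 138 TPM in replicate 2. Of the 7 tested, 6 were higher in replicate 1, and the median of 0.33 became 0.0045 under spike-in scaling. Only Lyz2 was higher in replicate 2, and at -1.34 it alone passed the mark. None of the matched markers of these lists was at 0 in either pool, and the lowest by mean was Elavl3 with 0.19 and 0.07 TPM. The part of these cell types in the ratios of the 10 genes was not tested, and in bulk RNA fewer cells of a type and less RNA per cell cannot be told apart.

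Relatives outside the 10 genes were mostly low. The tables hold 12 SLC2 genes, of which 6 were detected in both pools, and Slc2a1 held 81.5% in replicate 1 and 85.3% in replicate 2 of their summed TPM. Beyond the 4 carriers described, Slc2a10 led with 3.83 and 3.56 TPM, followed by Slc2a12 with 1.04 and 2.05 TPM, and Slc2a5, the fructose carrier, with 0.97 and 1.06 TPM. Of the 5 other SLC2 genes that could be tested, 1 passed the 2-fold mark on each side. Slc2a2, the gene of GLUT2 of liver and pancreas, had 145 expected counts in replicate 1 and 5 in replicate 2, a log2 ratio of 4.49 beside the 4.64 of the liver markers, and Slc2a12 stood at -1.08. Slc2a7 had no count in either pool, and at this depth up to 3 counts in a library remain possible.

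Of 14 SLC16 genes, 9 were detected in both pools. Slc16a3 held 74.2% of their TPM in replicate 1 and 71.1% in replicate 2. Slc16a12, the gene of a creatine carrier, had 15.6 TPM in replicate 1 and 28.5 TPM in replicate 2, above the level of Slc16a7, as were Slc16a6 with 10.52 and 13.96 TPM and Slc16a10, the gene of an aromatic amino acid carrier, with 8.42 and 9.67 TPM. Slc16a7 was 8th of the 14 by mean TPM. None of the 7 other SLC16 genes tested passed the 2-fold mark, although Slc16a12 came close with a log2 ratio of -0.97. None of 6 sodium-coupled carriers of glucose or monocarboxylates was detected, and together they summed to 0.56 TPM in replicate 1 and 0.33 TPM in replicate 2, led by Slc5a9 with 0.25 and 0.13 TPM and Slc5a2 with 0.16 and 0.10 TPM. Slc5a10 followed with 0.04 and 0.07 TPM, level by mean with Slc5a8 at 0.08 and 0.03 TPM.

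**Figure D5:**
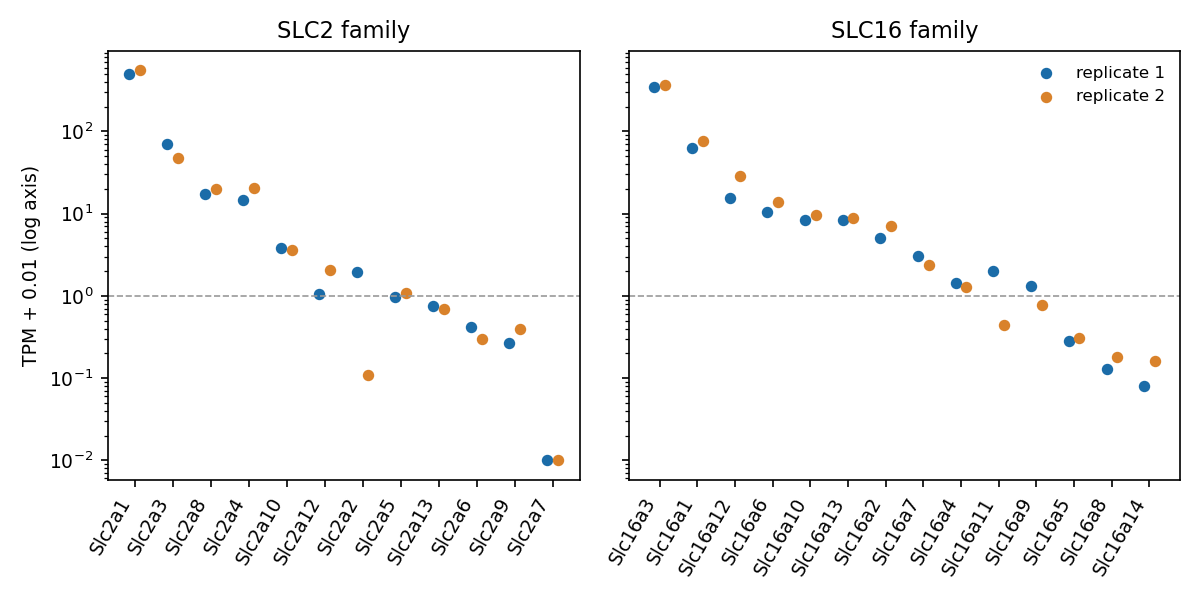
Level in TPM (log axis, with 0.01 added) of every SLC2 and SLC16 gene in the tables in replicate 1 and replicate 2; the dashed line marks 1 TPM. Slc2a1 and Slc16a3 stand above all relatives, 6 of 12 SLC2 genes and 9 of 14 SLC16 genes reach 1 TPM in both pools, and Slc2a2 lies far apart between the pools.

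All 16 glycolysis genes listed, whose enzymes use glucose and make pyruvate, were detected, led by Gapdh with 3064 TPM in replicate 1 and 3629 TPM in replicate 2, Eno1 with 2999 and 2744 TPM, and Pkm, the gene of pyruvate kinase, with 1914 and 1882 TPM. The lowest was Aldoc, an aldolase gene, with 9.35 and 14.6 TPM. On TMM-scaled counts 15 of the 16 were higher in replicate 2, and the median log2 ratio was -0.39. By TPM fewer were, and Pkm as well as Eno1 was higher in replicate 1. Only Hk1, a hexokinase that traps glucose in the cell, passed the mark, with 131 TPM in replicate 1 and 243 TPM in replicate 2. Ldha, whose subunit favours lactate formation, had 3458 and 3718 TPM, and Ldhb, of the subunit that favours pyruvate, had 367 and 494 TPM.

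The list of the pyruvate dehydrogenase complex, the mitochondrial step after the carrier, and its regulators had 12 genes detected of 12. It also counts Pcx, the gene of pyruvate carboxylase, a separate mitochondrial enzyme, with 17.5 TPM in replicate 1 and 21.3 TPM in replicate 2. Pdhb led with 267 TPM in replicate 1 and 368 TPM in replicate 2, followed by Dld with 151 and 195 TPM and Pdha1 with 122 and 186 TPM. Their median log2 ratio was -0.56, with 11 of 12 higher in replicate 2 and none past the mark, beside -0.69 for Mpc1 and -0.41 for Mpc2.

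Genes of GLUT4 traffic and glucose uptake control were all detected, 8 of 8, led by Aspscr1, the gene of a tether of GLUT4 vesicles, with 112 TPM in replicate 1 and 107 TPM in replicate 2. Akt2, a kinase of the insulin pathway, had 79.0 and 90.2 TPM, and Txnip, an arrestin-like inhibitor of glucose uptake, had 49.6 and 63.5 TPM. On TMM-scaled counts all 8 were lower in replicate 1, at a median log2 ratio of -0.26, with none past the mark. By TPM not all were, and Aspscr1 was higher in replicate 1. The 13 genes of the hypoxia list were detected as well, led by Bnip3 with 227 and 255 TPM, Hif1a, of a hypoxia-inducible subunit, with 115 and 165 TPM, and the oxygen-sensing hydroxylase gene Egln2 with 60.7 and 56.3 TPM. On TMM-scaled counts they were divided in direction, 8 higher in replicate 1 and 5 in replicate 2, with none past the mark. Ndrg1 reached 2-fold, at a log2 ratio of 1.09, but its intervals overlapped. By TPM more of the 13 genes were higher in replicate 1. The median of the list, 0.01 under TMM, became -0.31 under spike-in scaling, near that of all genes.

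The GENCODE M21 annotation has 10 genes that overlap the carriers or Bsg, of which 5 are in the tables, at Slc2a1, Mpc1 and Mpc2. The other 5, which lie at Slc16a1, Slc16a7 (Gm45604 and Gm47862, on the opposite strand) and Slc2a3 (the same-strand pseudogene Gm4482), were not analysed here. Mpc1 overlaps 4930506C21Rik on the opposite strand, which had 15.1 expected counts in replicate 1 and 13.5 in replicate 2. The antisense genes Gm12867 and Gm12868 at Slc2a1 had at most 20.0 expected counts in either pool, Mir1957a at Slc2a1 had 0 in both, and Gm37860 at Mpc2 had 6 and 14. The sources used here do not say whether counting used strand, so reads of a gene and its antisense partner cannot be told apart.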

How the data were processed

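The authors deposited gene and transcript tables for each library. Per the file headers, these tables give the expected count and posterior mean count (estimated counts of reads, not normalised), TPM (scaled by length, spike-ins included), FPKM, and bounds of a credibility interval of TPM, treated here as a score; they belong to the posterior mean, so a TPM can lie outside them. The deposited transcript tables add each transcript's percent of its gene's TPM. Assembly mm10 and annotation M4 are named in the deposited description. Neither the quantifying program nor the use of strand is given in the sources used here. RNA was extracted with mirVana, per the labels.

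Gene names and positions came from GENCODE release M21 and promoters from RefSeq. Expected counts were rounded and scaled by TMM in edgeR 4.0.16 (R 4.3.3) over 17557 genes of mean count 10 or more; log2 ratios between pools had a prior count of 0.5, and ratios between genes a TPM pseudocount of 0.01. The limit of a pair combined the 95th percentiles of the 2 neighbour sets as the root of summed squares. Python 3.11.15 with numpy 2.4.6, pandas 2.3.3 and scipy 1.17.1 did the rest, and DESeq2 1.42.0 gave alternative size factors. The code was also run on simulated data, from which no value is given here. That run gives no error rate for these libraries. Intervals and the floor of 3 counts cover counting error only.

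The genes, lists and pairs were chosen with earlier results of these data known. Text named all 10 genes, the 3 most abundant genes of each other list and those past the 2-fold mark (at most 6), and transcripts of at least 10%. Aldoc, Pcx, Slc5a8, Elavl3, Ndrg1 and the overlapping genes were named after their values were seen. Marker lists are given by their sums, with most of their genes named without values. Ahsp, a listed red cell marker, was not matched. No genes of like pattern were named, since over 2 libraries every pair correlates at 1 or -1. Alternatives covered thresholds, pseudocounts, FPKM, posterior means, unscaled counts, neighbour numbers, size factors, spike-ins and each library alone.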

Additional observations from a re-analysis of the deposited data

How the results depend on the processing

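All 10 genes were detected at 1 FPKM. Their detection at 0.5 TPM and in each library alone followed by construction from 1 TPM or more in both pools. The signs of the library ratios were kept under DESeq2 size factors, deposited TPM and posterior mean counts. Under the alternatives, 160 values of the gene pairs kept their direction and their side of the limit, 7 turned sign and 3 no longer passed the limit. With 200 nearest genes, or with genes of mean count 10 or more only, just the limit can change, so direction was kept by construction. Within a library FPKM is proportional to TPM, so the FPKM ratios of pairs also kept their direction by construction. In a single library, a pair past the limit could not turn sign, since passing required the same sign in both. At 5 TPM, 9 of the 10 genes were detected. Of the 10 genes, 1 differed between the pools under spike-in scaling, and 1 at a threshold of 1.5-fold on TMM-scaled counts, in each case Mpc1, against 0 as reported. In expected counts not divided by length, Slc2a1 held 81.3% of the glucose carriers and Slc16a3 70.4% of the monocarboxylate carriers as means over the pools, Bsg over Slc2a1 had a mean log2 ratio of -0.064, Mpc1 over Slc16a1 -1.86 and Slc2a8 over Slc2a4 -0.068, each with the sign turned, and Bsg over Slc16a3 was 0.77. From protein-coding transcripts only, chosen after seeing the data, the Mpc2 share of the carrier was 48.8%, Mpc1 over Mpc2 was 0.067 and Slc2a8 over Slc2a4 -0.0045. With single libraries, Slc2a8 over Slc2a4 ran from -0.043 (replicate 2 alone) to 0.23 and Slc16a1 over Slc2a3 from -0.16 (replicate 1 alone) to 0.71. Slc2a4 over Slc16a7 no longer passed its limit in replicate 1 alone (2.29) or with 200 nearest genes (2.70). Shares in single libraries ran from 82.8% to 86.4% for Slc2a1, 82.3% to 83.8% for Slc16a3 and 55.5% to 60.2% for Mpc2. The causes were not tested beyond what each setting changes by construction. Depth limits Slc16a7 most, whose interval between the pools spans 0. No paired analysis was possible because the series holds 1 group.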
